A study of Mus musculus with 38 samples.

Results

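Immediate early transcription factors are DNA-binding proteins whose genes are switched on within minutes of a signal, and 10 of them were followed here: *Egr1*, *Egr2*, *Egr3*, *Fos*, *Fosb*, *Fosl1*, *Jun*, *Junb*, *Nr4a1* and *Nr4a2*. They were taken by name from the 19938 named mouse genes on the array, and each of the 10 was read by 1 probe set that carried its symbol alone. Signals were measured in 38 thyroids, 1 microarray (GeneChip Mouse Gene 1.0 ST) per mouse, and are given as log2 signals, so that a difference of 1 is a doubling. Of the 10 genes, 5 (*Egr1*, *Fos*, *Fosb*, *Nr4a1* and *Nr4a2*) passed a filter on flat profiles, which asked that a probe set differ from its median signal by 1.5-fold or more in 20% or more of the mice. The number of mice that did so was 19 of 38 for *Egr1*, 18 for *Nr4a2*, 11 for *Nr4a1*, 10 each for *Fos* and *Fosb*, 7 for *Egr2*, 6 for *Junb*, 3 each for *Jun* and *Fosl1* and 1 for *Egr3*. Tests of those 5 genes were adjusted over the 4388 probe sets that passed the filter, and tests of the other 5 genes come from the same models fitted to all 35556 probe sets.

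The mice were FVB/N animals carrying a human *BRAF*V600E cDNA with a hemagglutinin tag behind the bovine thyroglobulin promoter, which is meant to confine the transgene to thyroid follicular cells, or non-transgenic animals. Mice with transgene RNA are called *BRAF*(+) and mice without it *BRAF*(-). Papillary thyroid carcinoma (PTC, n = 10) and borderline lesions (BL, n = 10) came from *BRAF*(+) mice only. Benign hyperplastic lesions (BHL) came from 4 *BRAF*(+) and 4 *BRAF*(-) mice, and thyroids without visible change (asymptomatic, AT) from 5 *BRAF*(+) and 5 *BRAF*(-) mice. Median ages were 11 months in PTC (range 6 to 21), 10.5 in BL (4 to 21), 10.5 in BHL *BRAF*(+) (4 to 11), 11.5 in BHL *BRAF*(-) (6 to 24), 10 in AT *BRAF*(+) (7 to 11) and 11 in AT *BRAF*(-) (4 to 12), and 29 of the mice were female. Several transgenic lines were used, and 1 BHL *BRAF*(-) mouse, M_764, was genotyped as transgenic but had no transgene RNA. By the paper, most *BRAF*(+) mice on arrays came from the line tg3, which had less mutant protein than tg2. The *BRAF*(-) mice came from tg1, tg2 and tg3. Line was therefore not balanced with *BRAF* status, and it was not in the models. RNA and histology came from different parts of the same gland, so that a label describes tissue next to the tissue measured. *Tg*, which encodes thyroglobulin, lay between 13.30 and 13.74 in all 38 mice, and of the 9 follicular cell markers read, *Slc26a4* had the lowest median signal (4.51). Array medians lay between 6.00 and 6.15, and the correlation between any 2 arrays was 0.944 or more.

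Immediate early genes need no new protein for their induction, because the factors that switch them on are already present in the resting cell. ERK, the last kinase of the cascade that BRAF feeds, activates factors of the ELK family bound beside serum response factor at the CArG box, and cAMP, the second messenger of thyrotropin in the thyroid, acts through CREB at the cAMP response element. EGR proteins are zinc finger factors held in check by the NAB co-repressors, FOS and JUN proteins pair to form the dimer AP-1, and NR4A proteins are orphan nuclear receptors that bind the NBRE element. Their transcripts are mostly short-lived, so that a steady level needs continued transcription.

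RefSeq promoter windows (build GRCm38.p6, 250 bases before to 50 after an annotated start, 300 bases each) were at hand for 7 of the 10 genes. The windows of *Nr4a2*, *Egr2*, *Junb*, *Fos* and *Fosb* are shown because these genes fall into the groups described below: *Fos*, *Fosb*, *Junb* and *Egr2* varied together after group means were removed, and *Nr4a2* had a positive r with *Fos* in *BRAF*(+) mice and a negative one in *BRAF*(-) mice. Capitals mark each match, on either strand, to the CArG box, the EGR site GCGNGGGCG, the TATA box TATAAA or the core of the cAMP response element, TGACG.
*Nr4a2* (chr2:57123954-57124253, minus strand): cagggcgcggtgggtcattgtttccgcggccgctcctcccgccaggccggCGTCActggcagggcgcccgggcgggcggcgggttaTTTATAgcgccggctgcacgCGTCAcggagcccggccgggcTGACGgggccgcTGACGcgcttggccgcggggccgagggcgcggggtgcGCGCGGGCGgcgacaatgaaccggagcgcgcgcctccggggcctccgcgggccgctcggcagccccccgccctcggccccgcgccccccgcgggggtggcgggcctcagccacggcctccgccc
*Egr2* (chr10:67537619-67537918, plus strand): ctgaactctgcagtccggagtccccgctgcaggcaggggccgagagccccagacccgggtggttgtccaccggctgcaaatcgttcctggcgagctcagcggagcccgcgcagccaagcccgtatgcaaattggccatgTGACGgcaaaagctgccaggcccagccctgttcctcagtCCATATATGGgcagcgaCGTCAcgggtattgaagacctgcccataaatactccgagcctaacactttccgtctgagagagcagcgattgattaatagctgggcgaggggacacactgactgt
*Junb* (chr8:84978699-84978998, minus strand): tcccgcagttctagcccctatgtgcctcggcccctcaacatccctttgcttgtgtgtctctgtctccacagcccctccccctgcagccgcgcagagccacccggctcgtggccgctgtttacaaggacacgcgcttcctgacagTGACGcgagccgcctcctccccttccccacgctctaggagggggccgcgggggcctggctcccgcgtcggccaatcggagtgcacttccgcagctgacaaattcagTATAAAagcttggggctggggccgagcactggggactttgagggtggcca
*Fos* (chr12:85473640-85473939, plus strand): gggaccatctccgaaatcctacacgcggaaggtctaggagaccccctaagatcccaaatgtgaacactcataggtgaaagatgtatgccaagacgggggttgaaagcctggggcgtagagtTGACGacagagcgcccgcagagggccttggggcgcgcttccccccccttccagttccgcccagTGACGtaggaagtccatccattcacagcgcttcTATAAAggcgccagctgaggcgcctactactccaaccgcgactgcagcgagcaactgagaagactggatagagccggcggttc
*Fosb* (chr7:19309996-19310295, minus strand): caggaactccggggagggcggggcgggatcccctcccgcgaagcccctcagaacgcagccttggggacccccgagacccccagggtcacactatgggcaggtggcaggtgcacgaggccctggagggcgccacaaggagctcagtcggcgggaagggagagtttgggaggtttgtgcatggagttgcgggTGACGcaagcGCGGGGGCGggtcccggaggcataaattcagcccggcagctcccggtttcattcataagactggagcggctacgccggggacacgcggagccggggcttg
The CArG box was present in *Egr2* alone of the 7 genes, against 1.63% of all 32851 windows of this length, and the *Egr2* window shown also held the TGACG core in both orientations. The EGR site was present in *Nr4a2*, *Fosb* and *Nr4a1*, against 5.55% of all windows. The letters TATAAA lay in *Fos*, *Junb* and *Nr4a2* (13.6% of all windows), in *Nr4a2* on the opposite strand. Counted from the annotated start, the match began at -33 in *Fos*, at 0 in *Junb* and at -164 in *Nr4a2*. The TGACG core lay in 6 of the 7 genes, all but *Jun*, against 20.8% of all windows, and the full element TGACGTCA, which contains the core, in none (1.79% of all windows). The AP-1 site TGANTCA (7.81% of all windows) and the NBRE site AAAGGTCA (1.51%) were found in none of the members' windows. The counts of genes take a match in any window of a gene, whereas the percentages are of single windows. The 7 genes had 11 windows, several of them overlapping windows of *Egr2*. Of these 11, 4 held the CArG box, all of *Egr2*, 3 the EGR site, 3 the TATA box and 8 the TGACG core. A match describes the letters of the window and not a bound factor, and these genes may be controlled from outside it.

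*Egr1* and *Nr4a2* were the members that separated *BRAF*(+) from *BRAF*(-) thyroids. *Egr1*, the best-known ERK target among the zinc finger factors, had lowest, median and highest signals of 8.44, 9.28 and 9.83 in PTC and of 7.94, 8.87 and 9.95 in BL. In BHL, the 4 *BRAF*(+) mice had *Egr1* signals of 8.20, 9.63, 9.72 and 9.84, against 7.44, 7.79, 8.03 and 8.17 in the 4 *BRAF*(-) mice, with no overlap. In AT, the 5 *BRAF*(+) mice had 8.22, 8.41, 8.71, 8.84 and 9.03, against 7.03, 7.22, 7.35, 7.42 and 8.45 in the 5 *BRAF*(-) mice, and the overlap came from 1 *BRAF*(-) mouse, M_940. Of the 29 *BRAF*(+) thyroids, 23 lay above the highest *BRAF*(-) thyroid for *Egr1* and 27 above the second highest.

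**Figure D1:**
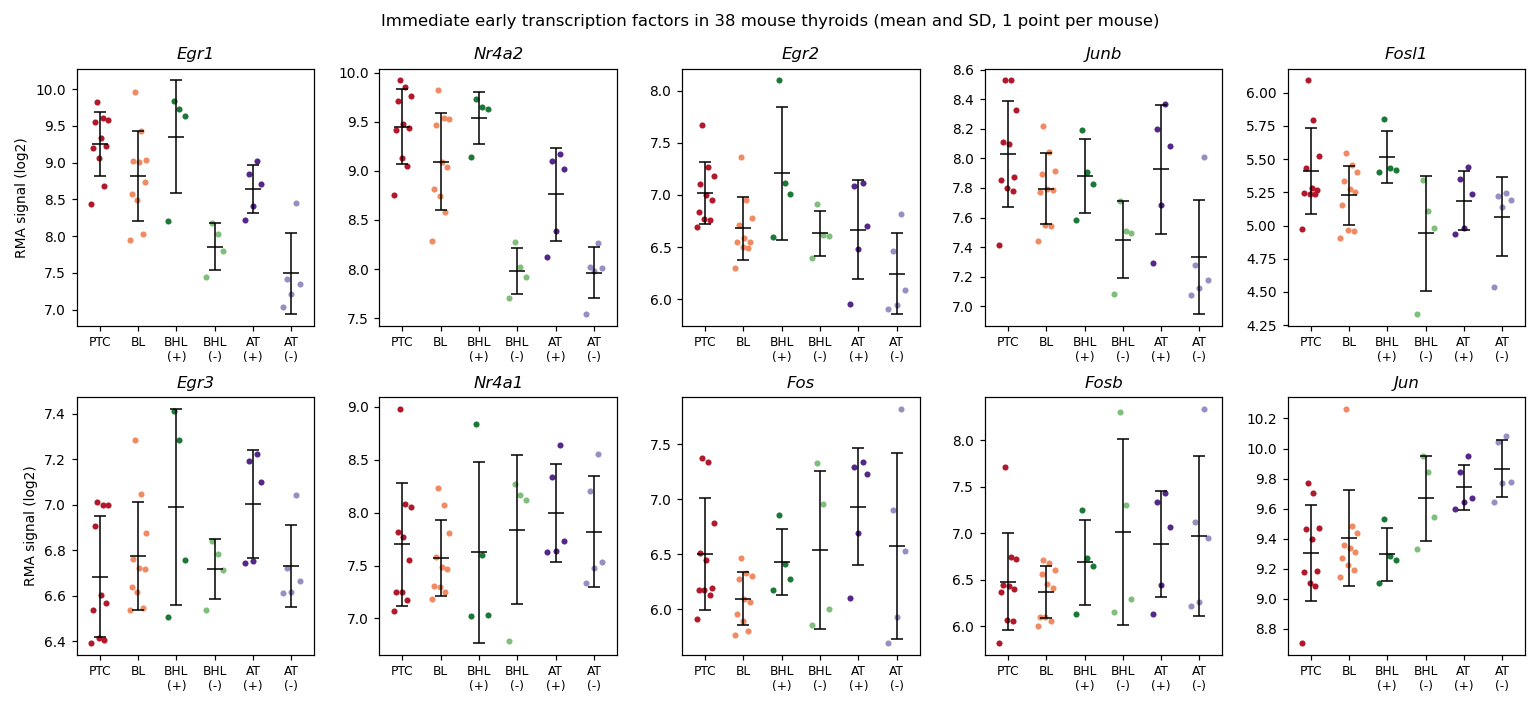
Log2 signal (y axis) of each of the 10 genes in each of 38 mice, by group (x axis: PTC, BL, BHL *BRAF*(+), BHL *BRAF*(-), AT *BRAF*(+), AT *BRAF*(-)), with the group mean and SD. *Egr1* and *Nr4a2* are low in both *BRAF*(-) groups, whereas *Fos*, *Fosb* and *Nr4a1* overlap between *BRAF*(+) and *BRAF*(-) mice.

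Among the 18 non-malignant thyroids (BHL and AT), *Egr1* averaged 8.96 ± 0.64 in *BRAF*(+) and 7.65 ± 0.48 in *BRAF*(-) mice (SD, n = 9 each). With lesion type and sex in the model, *Egr1* rose by 1.22 log2 units (SE 0.208), or 2.34-fold, in *BRAF*(+) thyroids (limma, adjusted p = 0.000407). The difference kept its call whichever mouse was left out (adjusted p between 0.000128 and 0.00136). In BHL alone it was 1.49 with an adjusted p of 0.00728, and in AT alone 1.05 with an adjusted p of 0.0991. In a whole gland, more cells of a type and more RNA per cell cannot be told apart, and this holds for every difference given here.

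*Egr1* group means ordered as 9.35 ± 0.77 in BHL *BRAF*(+), 9.25 ± 0.43 in PTC, 8.82 ± 0.61 in BL, 8.64 ± 0.33 in AT *BRAF*(+), 7.86 ± 0.32 in BHL *BRAF*(-) and 7.49 ± 0.55 in AT *BRAF*(-) (SD). The means of BHL *BRAF*(+) and PTC lay closer together than either SD, and neither PTC against BL (0.43, adjusted p = 0.897), BL against AT *BRAF*(+) (0.18, adjusted p = 0.664) nor BHL *BRAF*(-) against AT *BRAF*(-) (0.31, adjusted p = 0.999) passed the test in limma. Against AT *BRAF*(-), *Egr1* was higher by 1.69 in PTC (SE 0.278, adjusted p = 1.2e-05), by 1.26 in BL (SE 0.278, adjusted p = 0.000974) and by 1.80 in BHL *BRAF*(+) (SE 0.339, adjusted p = 0.00015). These comparisons share the 5 AT *BRAF*(-) mice. The difference between AT *BRAF*(+) and AT *BRAF*(-), 1.08 (SE 0.321), was called by a narrow margin (adjusted p = 0.0469) and was lost on leaving out any of 8 of the 10 mice (M_1003, M_523, M_945, M_948, M_524, M_771, M_956 and M_957, adjusted p between 0.0519 and 0.151).

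*Nr4a2*, an orphan receptor gene that responds to cAMP and growth signals, separated the genotypes more cleanly than the other members: 28 of 29 *BRAF*(+) thyroids lay above every *BRAF*(-) thyroid. Its lowest, median and highest signals were 8.75, 9.46 and 9.92 in PTC and 8.29, 9.06 and 9.83 in BL. In BHL, *Nr4a2* signals were 9.14, 9.63, 9.65 and 9.73 in *BRAF*(+) mice, against 7.70, 7.92, 8.02 and 8.27 in BHL *BRAF*(-) mice, and the highest of the *BRAF*(-) values belonged to M_764, the mouse genotyped as transgenic. The AT *BRAF*(+) mice had 8.12, 8.39, 9.02, 9.10 and 9.18, against 7.54, 7.98, 8.01, 8.02 and 8.27 in AT *BRAF*(-) mice. M_523 was the AT *BRAF*(+) mouse within the *BRAF*(-) range, and the AT difference of 0.76 (adjusted p = 0.0994) was 0.93 and passed without it (adjusted p = 0.0446).

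Among non-malignant thyroids *Nr4a2* averaged 9.11 ± 0.56 in *BRAF*(+) and 7.97 ± 0.24 in *BRAF*(-) mice (SD, n = 9 each), a rise of 1.12 (SE 0.207, 2.17-fold, adjusted p = 0.000893) that kept its call whichever mouse was left out. In BHL alone the *Nr4a2* difference was 1.56 (adjusted p = 0.00486), and in AT alone 0.76 (adjusted p = 0.253). The 2 effects differed by 0.80 (SE 0.374), which did not pass the limma test of the difference itself. After the filter the adjusted p was 0.303 and the unadjusted p 0.0444, and over all probe sets they were 0.454 and 0.0152. Against AT *BRAF*(-), *Nr4a2* was higher by 1.46 in PTC (SE 0.230, adjusted p = 6.14e-06), by 1.10 in BL (SE 0.230, adjusted p = 0.000558) and by 1.55 in BHL *BRAF*(+) (SE 0.280, adjusted p = 9.81e-05), and in each of these the groups did not overlap. *Nr4a2* was also higher in PTC than in AT *BRAF*(+), by 0.69 (SE 0.228, adjusted p = 0.0231), a call lost without M_523 (0.55, adjusted p = 0.0959) or M_779 (0.59, adjusted p = 0.0821).

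The *Egr1* and *Nr4a2* differences stood beside differences in markers of other cell types, not all of which were called. By *BRAF* status 2.19% of all probe sets were called higher and 1.91% lower, or 11.8% and 8.34% of the filtered ones. Mean signals of 10 macrophage markers spanned 8.54 to 9.14 in BHL *BRAF*(+), 7.58 to 9.05 in BHL *BRAF*(-), 7.96 to 9.35 in AT *BRAF*(+) and 7.54 to 8.63 in AT *BRAF*(-) mice. By *BRAF* status limma called 0 of these 10 over all probe sets, with 6 higher at an unadjusted p under 0.05 and a median difference of 0.44. Mean signals of 9 adipocyte markers spanned 8.00 to 9.08 in BHL *BRAF*(+), 8.96 to 9.88 in BHL *BRAF*(-), 8.43 to 9.35 in AT *BRAF*(+) and 9.18 to 9.76 in AT *BRAF*(-) mice, and 4 of those 9 markers were lower in *BRAF*(+) mice by the test over all probe sets. Of the 7 adipocyte markers that passed the flat filter, 5 were called lower in the filtered fit. Of 12 skeletal muscle markers, 0 were called over all probe sets (2 had an unadjusted p under 0.05 in limma), with a median difference of -1.18. All 12 passed the flat filter, and in the filtered fit 1 was called lower and 4 had an unadjusted p under 0.05. Mean muscle marker signals spanned 5.18 to 9.02 in PTC, 5.18 to 10.67 in BL, 5.35 to 5.57 in BHL *BRAF*(+), 5.45 to 9.74 in BHL *BRAF*(-), 5.37 to 5.46 in AT *BRAF*(+) and 5.37 to 9.84 in AT *BRAF*(-) mice, and no member passed a correlation with this score within groups (permutation test, adjusted p of 0.293 or more by r and by rho). All 5 brown adipocyte markers had an unadjusted p under 0.05 and a lower signal in *BRAF*(+) non-malignant thyroids, with a median difference of -1.40 and 1 of 5 called, and 2 of 9 follicular cell markers were called lower (median -0.07). After the filter 0 of 5 macrophage, 1 of 4 brown adipocyte and 2 of 4 follicular cell markers were called. In PTC against AT *BRAF*(-), 7 of 10 macrophage markers (median 0.66) and 5 of 6 proliferation markers (median 0.97) were higher, and 5 of 9 follicular cell (median -0.31), 6 of 9 adipocyte (median -1.02) and 5 of 5 brown adipocyte markers (median -1.95) lower, all over all probe sets. There 9.8% of all probe sets were called higher and 9.01% lower. After the filter the counts were 3 of 5 and 5 of 5 higher, and 4 of 4, 6 of 7 and 4 of 4 lower (28.8% and 10.7% of filtered probe sets). In BL against AT *BRAF*(-) the counts were 4 and 3 higher for macrophages and proliferation, and 1, 5 and 1 lower for follicular cells, adipocytes and brown adipocytes (6.05% and 5.41% of all probe sets). After the filter they were 3 of 5 and 5 of 5 higher, and 1 of 4, 6 of 7 and 4 of 4 lower (24.3% and 8.27% of filtered probe sets). In BHL *BRAF*(+) against AT *BRAF*(-) the counts over all probe sets were 1 and 0 higher (limma, with all 6 proliferation markers at an unadjusted p under 0.05), and 4, 1 and 2 lower, in the same order (3.71% and 3.59% of all probe sets). After the filter they were 2 of 5 and 1 of 5 higher, and 4 of 4, 2 of 7 and 3 of 4 lower (16.1% and 9.75% of filtered probe sets). Mean signals of 3 parathyroid markers spanned 4.74 to 5.53 in BHL *BRAF*(+) and 6.02 to 12.30 in BHL *BRAF*(-) mice, without overlap. In AT they spanned 5.14 to 6.75 in *BRAF*(+) and 5.00 to 11.86 in *BRAF*(-) mice. By *BRAF* status limma called 0 of the 3 (median difference -1.86, 2 lower at an unadjusted p under 0.05). Of 3 C cell markers 0 were called by *BRAF* status, and 2 were lower in PTC than in AT *BRAF*(-) (median -0.64). With the muscle, adipocyte and macrophage scores as covariates, the *Egr1* difference was 1.28 (SE 0.467, adjusted p = 0.35) and that of *Nr4a2* 0.32 (SE 0.421, adjusted p = 0.86). Whether these cells take part in the differences was not tested.

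The other member of the NR4A family, *Nr4a1*, did not follow *Nr4a2*. Its lowest, median and highest signals were 7.07, 7.66 and 8.98 in PTC and 7.18, 7.48 and 8.24 in BL. The BHL *BRAF*(+) mice had *Nr4a1* signals of 7.02, 7.03, 7.60 and 8.84, against 6.79, 8.12, 8.17 and 8.27 in BHL *BRAF*(-) mice, and the AT *BRAF*(+) mice had 7.63, 7.63, 7.73, 8.34 and 8.64, against 7.34, 7.48, 7.53, 8.20 and 8.55 in AT *BRAF*(-) mice. The groups overlapped throughout, and the difference by *BRAF* status was -0.06 (SE 0.264, adjusted p = 0.905). *Nr4a1* passed the test in none of the comparisons between groups, with differences from AT *BRAF*(-) of -0.20 in PTC, -0.33 in BL, -0.26 in BHL *BRAF*(+) and 0.10 in AT *BRAF*(+).

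*Egr2*, a zinc finger factor that binds the same site as EGR1, had lowest, median and highest signals of 6.70, 6.98 and 7.67 in PTC and 6.30, 6.57 and 7.37 in BL. The BHL *BRAF*(+) mice had 6.60, 7.01, 7.12 and 8.10, against 6.39, 6.60, 6.62 and 6.92 in BHL *BRAF*(-) mice, and the AT *BRAF*(+) mice had 5.96, 6.48, 6.70, 7.09 and 7.11, against 5.91, 5.95, 6.09, 6.46 and 6.81 in AT *BRAF*(-) mice. All these groups overlapped, with 13 of 29 *BRAF*(+) mice above the highest *BRAF*(-) mouse. *Egr2* was higher than in AT *BRAF*(-) by 0.70 in PTC (SE 0.179, adjusted p = 0.00602 over all probe sets) and by 0.90 in BHL *BRAF*(+) (SE 0.218, adjusted p = 0.00738), but without M_943, the BHL *BRAF*(+) mouse with 8.10, the BHL difference was 0.64 with an adjusted p of 0.0756. Among non-malignant thyroids the *Egr2* difference was 0.42 (SE 0.150, adjusted p = 0.135), and over all 38 mice, with the 4 *BRAF*(+) groups set against the 2 *BRAF*(-) groups, 0.41 (adjusted p = 0.0215). *Egr3*, the third EGR gene, varied least: its signals spanned 6.39 to 7.41 over all mice, the *BRAF* status difference was 0.24 (SE 0.100, adjusted p = 0.235), and no comparison between groups called it.

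*Junb*, which encodes a JUN protein of AP-1, was the third member called for *BRAF* status. It had lowest, median and highest signals of 7.41, 7.98 and 8.53 in PTC and 7.44, 7.79 and 8.22 in BL. *Junb* signals in BHL *BRAF*(+) mice were 7.59, 7.83, 7.91 and 8.19, against 7.09, 7.49, 7.51 and 7.71 in BHL *BRAF*(-) mice, and the AT *BRAF*(+) mice had 7.29, 7.68, 8.09, 8.20 and 8.36, against 7.08, 7.12, 7.17, 7.28 and 8.01 in AT *BRAF*(-) mice. The highest AT *BRAF*(-) value was again that of M_940, and 22 of 29 *BRAF*(+) mice lay above the second highest *BRAF*(-) mouse. *Junb* was higher by 0.47 (SE 0.118, 1.38-fold, adjusted p = 0.0329 over all probe sets) in non-malignant *BRAF*(+) thyroids, but 10 of the 18 omissions of a single mouse ended the call (M_1003, M_945, M_948, M_956, M_957, M_943, M_958, M_701, M_764 and M_946, adjusted p between 0.0523 and 0.0663). It was higher in PTC than in AT *BRAF*(-) by 0.65 (SE 0.167, adjusted p = 0.00649). For BL the *Junb* difference was 0.42 (adjusted p = 0.0994), and without M_940 it was 0.57 and passed (adjusted p = 0.0455).

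*Jun*, the founding JUN gene, ran the other way. Its lowest, median and highest signals were 8.71, 9.29 and 9.77 in PTC and 9.14, 9.33 and 10.26 in BL. In BHL, *Jun* signals of *BRAF*(+) mice were 9.10, 9.26, 9.29 and 9.53, against 9.33, 9.55, 9.84 and 9.95 in BHL *BRAF*(-) mice, and the AT *BRAF*(+) mice had 9.60, 9.65, 9.67, 9.84 and 9.95, against 9.65, 9.77, 9.77, 10.04 and 10.09 in AT *BRAF*(-) mice. All 4 BHL *BRAF*(+) mice lay below all 5 AT *BRAF*(-) mice. Against AT *BRAF*(-), *Jun* fell by 0.58 in PTC (SE 0.147, adjusted p = 0.00524 over all probe sets), by 0.49 in BL (adjusted p = 0.0276) and by 0.59 in BHL *BRAF*(+) (SE 0.179, adjusted p = 0.0365). The PTC call held whichever mouse was left out, the BL call was lost without M_524, M_940 or M_956 (adjusted p between 0.0516 and 0.099), and the BHL call in 7 of 9 omissions (M_524, M_771, M_940, M_956, M_943, M_958 and M_997, adjusted p between 0.0532 and 0.123). *Jun* was also lower in PTC than in AT *BRAF*(+), by a difference of -0.43 (adjusted p = 0.0402), a call lost in 8 of 15 omissions (M_523, M_779, M_945, M_948, M_1002, M_359, M_364 and M_700, adjusted p between 0.0524 and 0.119). Its difference by *BRAF* status among non-malignant thyroids was -0.25 (SE 0.097, adjusted p = 0.183).

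The FOS genes, whose products pair with JUN proteins in AP-1, showed wide spreads within groups. *Fos* had lowest, median and highest signals of 5.91, 6.32 and 7.38 in PTC and 5.76, 6.08 and 6.47 in BL. In BHL, the *BRAF*(+) mice had *Fos* signals of 6.17, 6.27, 6.41 and 6.86, against 5.85, 6.00, 6.96 and 7.33 in BHL *BRAF*(-) mice, and the AT *BRAF*(+) mice had 6.10, 6.69, 7.23, 7.29 and 7.34, against 5.69, 5.93, 6.53, 6.90 and 7.82 in AT *BRAF*(-) mice. No *BRAF*(+) mouse reached the highest *BRAF*(-) mouse, M_940. *Fos* differed by 0.05 (SE 0.233, adjusted p = 0.912) with *BRAF* status, less than its SE. The *Fos* difference between BL and AT *BRAF*(+) was -0.84 (SE 0.269, adjusted p = 0.0561), and without the BL mouse M_649 it was -0.85 and passed (adjusted p = 0.0424).

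*Fosb*, a close relative of *Fos*, had lowest, median and highest signals of 5.82, 6.42 and 7.71 in PTC and 6.00, 6.43 and 6.72 in BL. The BHL *BRAF*(+) mice had *Fosb* signals of 6.13, 6.65, 6.73 and 7.25, against 6.16, 6.30, 7.31 and 8.30 in BHL *BRAF*(-) mice, and the AT *BRAF*(+) mice had 6.13, 6.44, 7.07, 7.34 and 7.43, against 6.22, 6.26, 6.94, 7.12 and 8.33 in AT *BRAF*(-) mice. The 2 highest *Fosb* signals of the series belonged to *BRAF*(-) mice, M_940 and M_946. *Fosb* was lower in BL than in AT *BRAF*(-), with a difference of -0.73 (SE 0.284, 1.66-fold, adjusted p = 0.044), but the call was lost without M_940 (-0.43, adjusted p = 0.294) and without M_957, M_1005, M_416, M_528 or M_530 (adjusted p between 0.0564 and 0.0634). In PTC the difference was -0.62 (adjusted p = 0.0768), and without M_415, the PTC mouse with the highest signal, it was -0.74 and passed (adjusted p = 0.0306). With *BRAF* status *Fosb* differed by -0.30 (SE 0.264, adjusted p = 0.47). *Fosb* was the member called for sex, with a male minus female difference of -0.63 over the 38 mice (adjusted p = 0.032 after the filter and 0.0616 over all probe sets).

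*Fosl1*, which encodes the FOS relative FRA1 and is known as a target of sustained ERK activity, had low signals in every group. Its lowest, median and highest signals were 4.97, 5.27 and 6.09 in PTC and 4.91, 5.26 and 5.55 in BL. *Fosl1* signals in BHL *BRAF*(+) mice were 5.40, 5.42, 5.44 and 5.81, against 4.33, 4.98, 5.11 and 5.34 in BHL *BRAF*(-) mice, without overlap. The AT *BRAF*(+) mice had 4.94, 4.98, 5.24, 5.35 and 5.44, against 4.54, 5.14, 5.19, 5.22 and 5.25 in AT *BRAF*(-) mice. Although the BHL groups did not overlap, the difference of 0.57 (SE 0.20) had an adjusted p of 0.08 over all probe sets, and that by *BRAF* status was 0.33 (SE 0.144, adjusted p = 0.263). Over all 38 mice the *Fosl1* difference by *BRAF* status was 0.32 and passed (adjusted p = 0.0406).

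**Figure D2:**
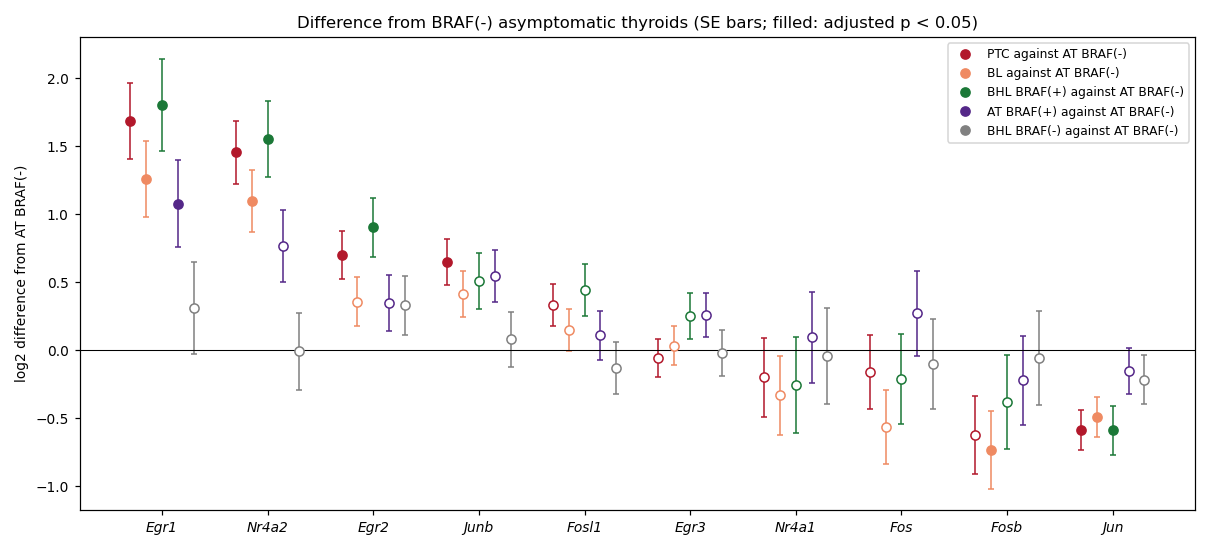
Log2 difference (y axis, SE bars) of each gene (x axis) from AT *BRAF*(-) in the other groups, with filled symbols for an adjusted p under 0.05. *Egr1* and *Nr4a2* lie above 0 in the 4 *BRAF*(+) groups, and in BHL *BRAF*(-) *Egr1* lies at 0.31 and *Nr4a2* at -0.01. *Jun* lies below 0 in every group shown, with filled symbols in PTC, BL and BHL *BRAF*(+) and open ones in AT *BRAF*(+) (-0.15) and BHL *BRAF*(-) (-0.22).

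Counted over the list, 2 of the 5 members that passed the filter were higher and 0 lower in *BRAF*(+) non-malignant thyroids, where 11.8% of all filtered probe sets were called higher and 8.34% lower. Over all probe sets 3 of the 10 members were higher and 0 lower, against 2.19% and 1.91%, and the median difference of the 10 members was 0.28, against 0.02 for all probe sets. In PTC against AT *BRAF*(-), 2 of 5 were higher (28.8% of filtered probe sets, with 10.7% lower) and, over all probe sets, 4 of 10 were higher and 1 lower (9.8% and 9.01%). In BL against AT *BRAF*(-), 2 of 5 were higher and 1 lower (24.3% and 8.27%), and over all probe sets 2 of 10 higher and 1 lower (6.05% and 5.41%), the lower gene being *Fosb* after the filter and *Jun* over all probe sets. In BHL *BRAF*(+) the counts were 2 of 5 higher against AT *BRAF*(-) (16.1%, with 9.75% lower), 3 of 10 higher and 1 lower over all probe sets (3.71% and 3.59%), and 2 of 5 higher against BHL *BRAF*(-) (13.5%, with 10.7% lower), or 2 of 10 over all probe sets (2.98%, with 3.64% lower). With each array centred on its own median, the calls over all probe sets were 8.27% higher and 12.5% lower in PTC, 4.92% and 8.96% in BL and 2.88% and 4.59% in BHL *BRAF*(+), each against AT *BRAF*(-), and 2.3% and 4.46% in BHL *BRAF*(+) against BHL *BRAF*(-).

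In AT *BRAF*(+) against AT *BRAF*(-), 1 of 5 members was higher (3.62% of filtered probe sets, with 0.251% lower). In PTC against AT *BRAF*(+) the count was 1 of 5 higher (22.6%, with 5.83% lower) and, over all probe sets, 1 of 10 higher and 1 lower (8.49% and 6.44%, or 7.45% and 10.1% with centred arrays). In BL against AT *BRAF*(+), limma called 0 of 5 members (4.4% and 0.433%), with 1, *Fos*, at an unadjusted p under 0.05 and 0 with an unmoderated variance. Limma called 0 members in PTC against BL and in BHL *BRAF*(-) against AT *BRAF*(-), where 0 probe sets were called at all. At an unadjusted p under 0.05, *Egr2* and *Nr4a2* were higher in PTC than in BL over all probe sets, and 0 members differed between the *BRAF*(-) groups. The test of whether the *BRAF* effect differed between BHL and AT called 0 of 5 members (0.251% and 0.342% of filtered probe sets), with *Nr4a2* at an unadjusted p under 0.05.

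Mice of the same age whose numbers lay within 10 of each other formed 4 sets that held both genotypes. In the set of 6 mice, *Egr1* spanned 8.84 to 9.84 in 4 *BRAF*(+) mice and 8.03 to 8.45 in 2 *BRAF*(-) mice, and *Nr4a2* 9.02 to 9.73 in the *BRAF*(+) and 7.54 to 7.70 in the *BRAF*(-) mice. In the set of 5 mice, *Egr1* spanned 8.22 to 9.003 in 4 *BRAF*(+) mice against 7.42 in the *BRAF*(-) mouse, and *Nr4a2* 8.12 to 9.53 against 7.98. The other two sets were pairs of mice. *Egr1* was 8.44 in the PTC mouse M_700 against 7.44 in the BHL *BRAF*(-) mouse M_701, and 9.02 in the BL mouse M_772 against 7.03 in the AT *BRAF*(-) mouse M_771. *Nr4a2* was 9.05 in M_700 against 8.02 in M_701, and 9.04 in M_772 against 8.27 in M_771. Both genes were thus higher in every *BRAF*(+) mouse than in the *BRAF*(-) mice of its set. *Fos* had no common direction: it spanned 6.17 to 7.29 in the *BRAF*(+) mice of the set of 6, below the 7.33 and 7.82 of its *BRAF*(-) mice, and 5.76 to 6.47 in those of the set of 5, on both sides of the 5.93 of its *BRAF*(-) mouse. In the pairs, *Fos* was 5.91 in M_700 against 5.85 in M_701 and 6.07 in M_772 against 5.69 in M_771.

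Members varied together among mice of the same group. After group means and sex were removed, 39 of the 45 pairs of members had a positive Pearson's r over the 38 mice, with a median of 0.41, and 24 pairs passed a permutation test adjusted over the 45 pairs, all with a positive r (20 by Spearman's rho, 19 by both). The highest r was that of *Fos* and *Fosb* (r = 0.80, rho = 0.75, adjusted p = 0.00027 for r). *Junb* went with *Fos* (r = 0.73), *Egr2* (r = 0.72) and *Egr1* (r = 0.71), each with the same adjusted p, and r was 0.61, 0.73 and 0.67 without the 2 mice farthest from the median. *Nr4a2* went with *Fosl1* (r = 0.58, rho = 0.59, adjusted p = 0.0013) and with *Junb* (r = 0.51, rho = 0.51, adjusted p = 0.0112), but not with *Fos* (r = 0.08, adjusted p = 0.661). The lowest r was that of *Jun* and *Nr4a2* (r = -0.37, adjusted p = 0.0759, and rho = -0.42, adjusted p = 0.0323).

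**Figure D3:**
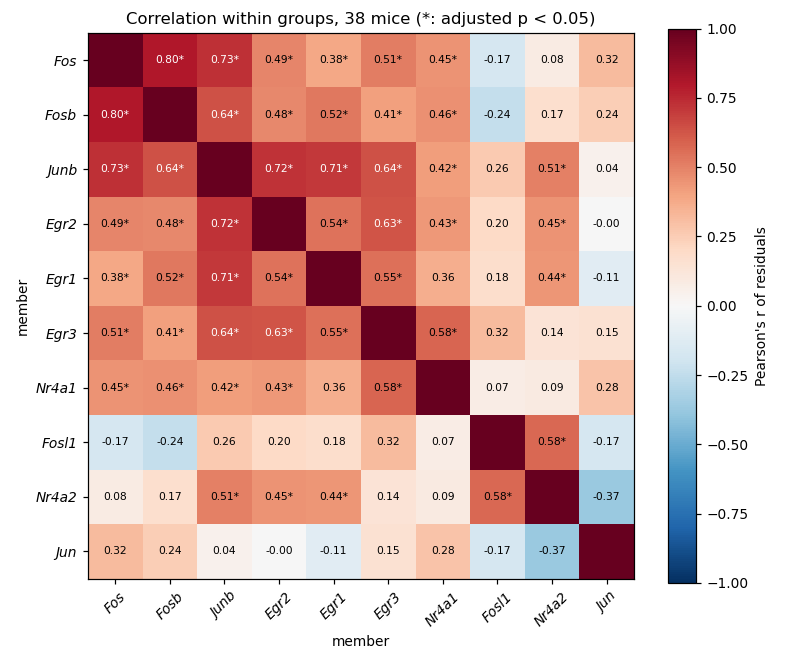
Pearson's r (colour) of each pair of the 10 genes over 38 mice, after group means and sex were removed, with a star where the adjusted permutation p is under 0.05. *Fos*, *Fosb*, *Junb*, *Egr1*, *Egr2* and *Egr3* form a block of positive values, and *Jun* has none of the starred pairs.

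The low r of *Fos* and *Nr4a2* over all mice joined opposite values in the genotypes, which were taken apart after the data had been seen. In the 29 *BRAF*(+) mice *Fos* and *Nr4a2* had r = 0.48 and rho = 0.46 (permutation test, adjusted p = 0.02, and r = 0.33 without the 2 mice farthest from the median). In the 9 *BRAF*(-) mice, with group means removed, r was -0.87 and rho -0.75 (exact permutation test over 2880 arrangements, two-sided p = 0.00556, adjusted p = 0.0504), and r was -0.76 without M_940, the mouse with the highest *Fos* and the lowest *Nr4a2* of its group. Without the 2 mice farthest from the median, r was -0.70. *Egr1* and *Nr4a2* likewise had r = 0.64 in *BRAF*(+) mice (adjusted p = 0.00205) and r = -0.81 in *BRAF*(-) mice (exact test, adjusted p = 0.0721), or -0.56 without M_940. Sex was removed in the *BRAF*(+) mice but not in these values of the *BRAF*(-) mice. With sex removed there too, r was -0.96 for *Fos* and *Nr4a2* and -0.78 for *Egr1* and *Nr4a2*. The difference between the genotypes was not tested. Of the 45 pairs, 27 passed in the *BRAF*(+) mice and 2 in the *BRAF*(-) mice, *Egr1* with *Junb* (r = 0.98) and *Fos* with *Fosb* (r = 0.97), each with an adjusted p of 0.0234 in the exact test, and 0 by rho.

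**Figure D4:**
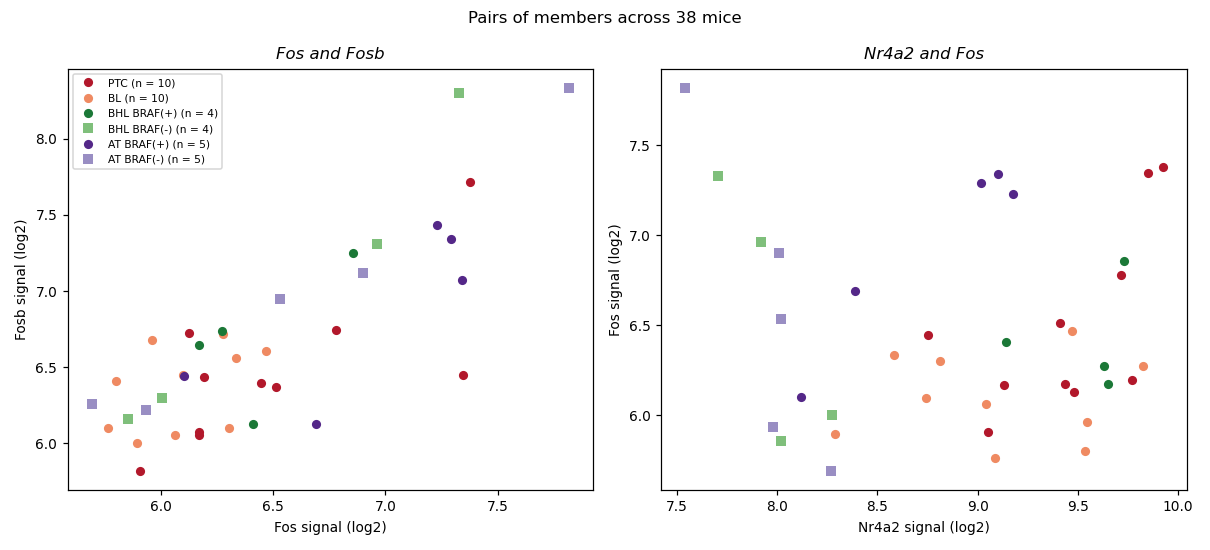
Log2 signals of pairs of members in each of 38 mice, with the groups in colour (x axis, the gene named first in each panel, y axis, the gene named second). *Fosb* is high where *Fos* is high (r = 0.80 within groups). *Fos* and *Nr4a2* go together in *BRAF*(+) mice (r = 0.48, group means and sex removed). In *BRAF*(-) mice r was -0.87 (group means alone removed), which did not pass (exact permutation test, adjusted p = 0.0504).

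The array carries a probe set for *Braf* that may read mouse and human RNA together. Its mean signals were 9.87 in PTC, 9.70 in BL, 9.93 in BHL *BRAF*(+), 9.10 in BHL *BRAF*(-), 9.38 in AT *BRAF*(+) and 9.13 in AT *BRAF*(-). Within the groups of the 29 *BRAF*(+) mice, *Nr4a2* followed the *Braf* signal (r = 0.74, rho = 0.72, adjusted p = 0.0008 over the 10 members, and r = 0.68 without the 2 mice farthest from the median *Braf* signal). *Egr1* did so less closely (r = 0.55, rho = 0.62, adjusted p = 0.0361, and r = 0.47 without those 2 mice). By rho, *Fosb* (0.56), *Fosl1* (0.49) and *Junb* (0.49) passed too, and *Fos* had r = 0.03. In the 9 *BRAF*(-) mice, examined after the data had been seen and with group means but not sex removed, *Nr4a2* also followed *Braf* (r = 0.89, rho = 0.88, exact permutation test, adjusted p = 0.0174 for r, and r = 0.79 without M_940), whereas *Egr1* had r = -0.83 (adjusted p = 0.0677). The *BRAF*(-) mice have no transgene RNA by their labels, so there the probe set reads the mouse gene.

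**Figure D5:**
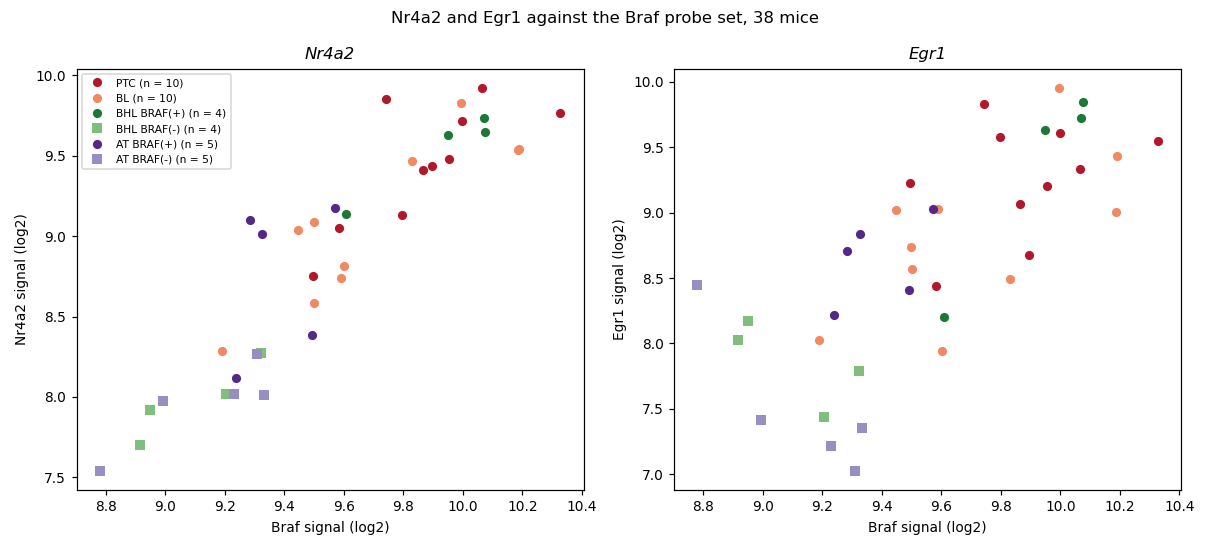
*Nr4a2* and *Egr1* log2 signals (y axes) against the *Braf* probe set's log2 signal (x axis) in each of 38 mice, by group. *Nr4a2* rises with *Braf* among the *BRAF*(+) mice (r = 0.74 within groups) more closely than *Egr1* does (r = 0.55).

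Members also went with marker scores, over 70 tests of 10 members and 7 scores. The macrophage score went with *Fos* (r = 0.64, rho = 0.66, permutation test, adjusted p = 0.00455), *Junb* (r = 0.59, adjusted p = 0.00455), *Egr2* (r = 0.55, adjusted p = 0.0128) and *Fosb* (r = 0.54, adjusted p = 0.026) within groups. *Egr2* went with the fibroblast score (r = 0.60, adjusted p = 0.0137) and *Jun* with the follicular cell score (r = 0.54, adjusted p = 0.0224). *Nr4a2* ran against the brown adipocyte score (r = -0.56, adjusted p = 0.0103) and the follicular cell score (r = -0.52, adjusted p = 0.043). The part of these cells in the members' signals was not tested.

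The genes whose pattern was most like the members, after group means and sex were removed over 38 mice, held several other immediate early genes. For the mean of the 5 members that passed the filter they were *Epha2*, an ephrin receptor gene (r = 0.81), *Tead2* (0.80), *Btg2* (0.75), *Ier2* (0.74), *Rhoc* (0.73), *Ptgs2* (0.72), *Nab2* (0.72) and *Ube2z* (0.72). For *Egr1* alone they were *Epha2* (0.77), *Pafah1b3* (0.77), *Hbegf*, a growth factor gene (0.75), *Dusp6*, an ERK phosphatase gene (0.74), and *Eif2b2* (0.74). For *Nr4a2* and *Fos*, chosen for this after the data had been seen, the genes had no name in common: *Actn1* (0.87), *Ptpn13* (0.86), *Efnb2* (0.85), *Plekhg1* (0.83) and *Jag1* (0.83) for *Nr4a2*, and *Dusp1* (0.84), *Fosb* (0.80), *Atf3* (0.77), *Zfp36* (0.76) and *Junb* (0.73) for *Fos*. These r are the highest of many and are given as a description.

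Other genes of the pathway were counted in the same comparison of *BRAF* status, over all probe sets, of which 2.19% were called higher and 1.91% lower. These lists were chosen with earlier results of these data known, so that their counts are description and not an independent test. Of 12 further family members and partners, 2 were higher and 0 lower (median difference 0.05, against 0.02 for all probe sets). They were *Nab2*, the co-repressor that EGR proteins induce (0.82, adjusted p = 0.00492 after the filter), and the FOS relative *Fosl2* (0.59, adjusted p = 0.0021). *Nr4a3*, the third NR4A gene, had a difference of 0.40 (adjusted p = 0.389), *Jund* one of -0.13 (adjusted p = 0.723) and *Atf3* one of 0.25 (adjusted p = 0.567 after the filter).

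Of 20 other immediate early genes, 3 were higher and 1 lower (median 0.19). The 3 were *Ccn2* (0.94, adjusted p = 0.00679) and *Ccn1* (0.76, adjusted p = 0.0232), which encode matricellular proteins, and *Arc* (0.86, adjusted p = 0.000859), best known from neurons, all after the filter. The lower gene was *Rhob*, a small GTPase gene (-0.49, adjusted p = 0.0149). *Dusp1*, a phosphatase gene induced by the same stimuli as *Fos*, had a difference of 0.24 (adjusted p = 0.523 after the filter) and *Myc* one of 0.44 (adjusted p = 0.0947), and neither was called.

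Of 10 upstream factors measured, 1 was higher, the serum response factor partner *Mrtfa* (0.32, adjusted p = 0.029), and 0 lower. Of 13 transcripts that report ERK activity, 7 were higher and 0 lower over all probe sets, with a median of 0.57. This list and that of AP-1 target genes were likewise chosen with earlier results known, and 2.19% of all probe sets were called higher. By size, the leading ones were *Ccnd1*, the cyclin D1 gene (1.29), the ETS factor gene *Etv1* (1.13) and 3 feedback inhibitors of the cascade, *Dusp5* (1.07), *Spred1* (0.77) and *Dusp6* (0.68), with adjusted p between 0.00139 and 0.0131 after the filter. Of 11 AP-1 target genes, 4 were higher and 0 lower (median 0.52), namely *Timp1* (1.26, adjusted p = 0.00652 after the filter), *Plaur*, the urokinase receptor gene (0.94, adjusted p = 0.0028 after the filter), *Hbegf* (0.89, adjusted p = 0.00661) and *Ptgs2*, which encodes cyclooxygenase 2 (0.76, adjusted p = 0.0246). Of 7 heat shock genes, which answer to protein stress, limma called 0, with 0 at an unadjusted p under 0.05.

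Single mice held the ends of several groups. M_940 had the highest AT *BRAF*(-) signal for 8 of the 10 members and the lowest for the other two, *Nr4a2* and *Fosl1*. M_701 was the lowest BHL *BRAF*(-) mouse for 8 members, M_958 the lowest BHL *BRAF*(+) mouse for 7, M_523 the lowest AT *BRAF*(+) mouse for 6 and M_700 the lowest PTC mouse for 6. M_701, M_958, M_523 and M_700 were male: M_701, M_958 and M_523 were each the only male of their group, and M_700 was 1 of 2 males in PTC. The other PTC male, M_686, had the highest PTC signal for 1 member, *Egr1* (9.83), and the lowest for 0. Every member had a negative male minus female difference over the 38 mice, from -0.045 (*Egr3*) to -0.63 (*Fosb*). Whether sex accounts for these low ends was not tested. M_415 was the highest PTC mouse for 8 members, M_943 the highest BHL *BRAF*(+) mouse for 7 and M_948 the highest AT *BRAF*(+) mouse for 6.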

How the data were processed

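RNA of 38 mouse thyroids was hybridised to GeneChip Mouse Gene 1.0 ST arrays, 1 per mouse. The labels name a 3' IVT labelling kit. The authors deposited log2 signals for 35556 probe sets, made by robust multi-array averaging (RMA), whose version is not given in the sources used here. All 38 columns were matched to mice by their labels. The deposited log2 signals were tested as they stand, with limma 3.58.1 in R 4.3.3, with sex and lesion type (non-malignant thyroids) or group means (6 groups) in the model, and Benjamini-Hochberg adjustment at 0.05 over the 4388 probe sets that passed the flat filter or over all 35556. Calls on members that failed the filter come from the unfiltered fit. The spread within groups is between mice, and the number of arrays limits the precision. The RMA signal levels of different probe sets were not tested against each other, and remarks on low signals are description only. Gene symbols came from the platform annotation: 21789 probe sets had 1 symbol, 1621 several and 12146 none listed.

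Correlations were computed with Python 3.11.15 on residuals after group means and sex, with 100000 permutations within groups. Those in the 9 *BRAF*(-) mice alone had group means but not sex removed, and used all 2880 arrangements within groups. Scripts were tested on simulated data. The text names the 10 members, up to 6 genes of each pathway list (those called with the largest differences first, and defining genes), the 8 genes most like the mean of 5 members, the 5 most like *Egr1*, and *Braf*. Members and lists were chosen with earlier results of these data known. Alternatives were no filter, a filter over the 18 non-malignant mice, centred arrays, intensity trend with robust variance, array weights, age, no sex term, females only, neighbouring mouse numbers as a random block, tissue scores, each lesion type alone, all 38 mice, unmoderated variance, and leaving out each mouse. The genotypes were taken apart in correlations, and genes like *Nr4a2* and *Fos* sought, after seeing the data.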

Additional observations from a re-analysis of the deposited data

Results flagged for a closer look

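Of the 60 sets of 1 member in 1 group, 11 held a mouse at the high or low end that stood apart from the rest of its group by Dixon's criterion, where chance gives about 1 in 20, or 3. M_940 did so in AT *BRAF*(-) for 4 members. Its signal was the highest for *Egr1* (8.45), *Junb* (8.01) and *Egr3* (7.04), and the lowest for *Fosl1* (4.54). In BHL *BRAF*(+), M_958, the only male of that group, had the lowest signal for *Egr1* (8.20) and for *Nr4a2* (9.14). M_997 had the highest for *Fosl1* (5.81). In BHL *BRAF*(-), M_701, the only male of that group, had the lowest signal for *Nr4a1* (6.79). In PTC, M_415 had the highest signal for *Fosb* (7.71) and for *Nr4a1* (8.98). In BL, M_649 had the highest signal for *Jun* (10.26).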

How the results depend on the processing

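By *BRAF* status in non-malignant thyroids, 0 members were called in AT alone (5 against 5 mice) and with the muscle, adipocyte and macrophage scores as covariates, where the *Egr1* difference was 1.28 and that of *Nr4a2* was 0.32 instead of 1.12, less than its SE of 0.421. With those scores the count of members called was 4 instead of 2 in PTC against AT *BRAF*(-), 1 instead of 2 in BHL *BRAF*(+) against BHL *BRAF*(-), 0 instead of 1 in PTC against AT *BRAF*(+) and in AT *BRAF*(+) against AT *BRAF*(-), and 1 instead of 0 in BL against AT *BRAF*(+). Without the flat filter, where 10 instead of 5 members are tested, it was 5 in PTC and 4 in BHL *BRAF*(+) against AT *BRAF*(-), 2 in PTC against AT *BRAF*(+) and 0 in AT *BRAF*(+) against AT *BRAF*(-). The single call in AT *BRAF*(+) against AT *BRAF*(-) also became 0 with age, with centred arrays, in females only and with an unmoderated variance, and 2 with array weights. Of the 4388 filtered probe sets, 159 were called higher and 11 lower there in the main fit. These counts were 153 and 9 with centred arrays, and 350 and 36 with array weights, so that calls over all filtered probe sets rose with the weights too. In females only, PTC against AT *BRAF*(+) had 0 calls and BL against AT *BRAF*(+) 1, as the second of these also had with array weights. In BL against AT *BRAF*(+), 193 filtered probe sets were called higher and 19 lower in the main fit, and 335 and 63 with array weights. Counts of members under the other settings are given without the share of all probe sets, and are not read as a result about the members. Correlation with *Braf* called 5 members by rho instead of 2 and 1 in the 9 *BRAF*(-) mice, where 2 pairs of members instead of 24 were called. Leaving out 1 mouse gave 0 to 1 calls in AT *BRAF*(+) against AT *BRAF*(-), in PTC against AT *BRAF*(+) and in BL against AT *BRAF*(+), and 2 to 3 in PTC and in BL against AT *BRAF*(-). The cause of these shifts was otherwise not tested.

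Signs turned only for differences that were not called. For *BRAF* status *Fos* was at -0.11 in BHL alone, -0.0655 with age, -0.11 over all 38 mice and -0.13 in females, and *Nr4a1* at 0.15 in AT alone, 0.0157 with array weights, 0.34 with the scores and 0.00164 without sex. In PTC against AT *BRAF*(-), *Egr3* was at 0.0236 with array weights. In BL against AT *BRAF*(-), *Egr3* was at -0.00915 with centred arrays, -0.11 in females and -0.16 with the scores, which also turned *Egr2* (-0.00201) and *Junb* (-0.00635). Leaving out 1 mouse gave -0.0726 to 0.17 for *Fos* and -0.19 to 0.0453 for *Nr4a1* by *BRAF* status, -0.11 to 0.0236 for *Egr3* and -0.34 to 0.14 for *Fos* in PTC, and -0.0495 to 0.11 for *Egr3* and -0.00135 to 0.19 for *Fosl1* in BL. Of 407 values of single members outside the omissions, 344 kept direction and call, 41 lost and 8 gained the call, and the rest turned sign as given. No paired analysis was possible because the groups share no mouse numbers. The mean of all probe sets of a member was not run, since each member has 1 probe set.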
